A study of Mus musculus with 48 samples.

Results

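Whole colon of mice that met a low selenium and folate diet throughout life (LL) was compared with whole colon of mice that met the supplemented diet throughout life (HH). The members were the 12 arrays whose titles give colon RNA of diet HH or diet LL, 6 of each, among 48 arrays of the series. The first letter of a group names what the dam ate during mating, gestation and lactation, and the second names what her offspring ate from weaning to 12 weeks of age. Diet H was a high-fat diet supplemented with selenium and folate, and diet L was the same high-fat diet with marginally low amounts of both. HH and LL thus shared the high fat content and differed in selenium and folate together and in both periods of life. The diets also carried different food dyes, red in H and yellow in L. All mice were C57BL/6, and the methods describe the offspring as male. The sources do not say whether the 6 mice of a group came from separate litters, so p-values measure the spread between these mice. HL and LH colon arrays, 12 in all, entered the fit to share its estimate of the spread and are otherwise given only beside HH and LL.

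Selenium acts in the cell mainly through selenoproteins, enzymes that carry selenocysteine in place of cysteine. They include glutathione peroxidases, which reduce peroxides, and thioredoxin reductases, which keep thioredoxin reduced. When selenium is short, transcripts of some selenoproteins are degraded while others are spared, an order known as the selenoprotein hierarchy, in which *Gpx1* and *Selenow* are among the most sensitive. Folate carries one-carbon units for the synthesis of thymidylate and purines and for the remethylation of homocysteine to methionine, the precursor of the methyl donor for DNA methylation. The colon lining is renewed continuously by dividing crypt cells, which draw on both supplies.

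Each array measured the mouse sample in Cy3 against a common reference RNA in Cy5, and values are log2 ratios of mouse over reference after background correction and loess. On the 12 arrays 67.6% to 73.7% of spots were well above background in Cy3, and 15317 of 18437 named genes were so on at least 12 of the 24 colon arrays. Tissue markers, read as a check of the label, gave colon levels: *Muc2*, the gel-forming mucin of goblet cells, lay between 0.99 and 1.64 on the 12 arrays and between -3.44 and -2.6 on the liver arrays, while *Alb*, the liver's plasma albumin, lay between -4.77 and -4 in colon and between 0.2 and 1.29 in liver. Sex-linked transcripts did not match the stated sex on every array. *Xist*, the RNA that silences an X chromosome in female cells, reached a log2 Cy3 intensity of 13.2 in both LL replicate 1 and LL replicate 3, where the Y-linked *Eif2s3y* was at 7.2 and 6. HH replicates 1 and 5 (11.8 each) and LL replicate 5 (9.5) gave *Xist* signal together with *Eif2s3y*, and the remaining 7 arrays had *Xist* at 6.2 to 7.6 and *Eif2s3y* at 11 to 11.4. Among the HL and LH arrays of the fit, HL replicate 5 also had the female pattern, with *Xist* at 13.1 and *Eif2s3y* at 6.1. Values without LL replicates 1 and 3, or without the 5 HH and LL arrays, are given beside the results that moved most. The setting without the 5 arrays keeps only HH replicates 2, 3, 4 and 6 and LL replicates 2, 4 and 6.

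No gene passed the threshold between HH and LL. Of 41173 probes 0 (0%) had a fold change over 1.5 with an adjusted p (Benjamini-Hochberg, limma) under 0.05, and the lowest adjusted p was 1. At an unadjusted p under 0.05 there were 1414 probes (3.43%), and among named genes 646 of 18437 (3.5%), of which 365 (1.98%) were lower and 281 (1.52%) higher in LL. The measurement was precise enough to bound most genes closely: among the 15317 genes well above background, the log2 difference LL minus HH lay between -0.16 and 0.22 for the central 95%, with a standard deviation of 0.1, and the 95% confidence interval of 14872 genes (97.1%) lay wholly within 1.5-fold in either direction. Of 4 genes (0.0217%) whose HH and LL arrays did not overlap, 2 were well above background (0.0131%). These were *Olfr38* (an olfactory receptor gene, HH 0.21 to 0.44, LL -0.03 to 0.16, unadjusted p = 0.000553) and *Gsdmc3* (HH -1.24 to -0.38, LL -1.88 to -1.24, unadjusted p = 0.0846), named here after their values were seen.

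**Figure D1:**
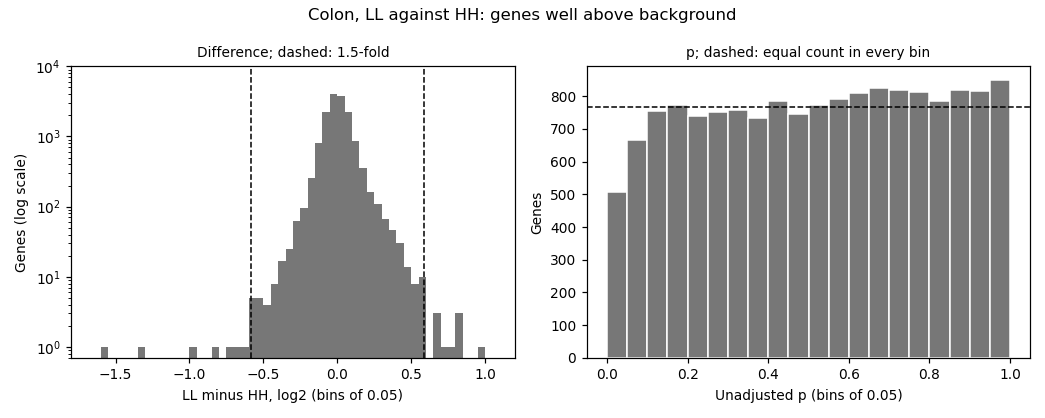
Left, the number of genes well above background (log scale) by log2 difference LL minus HH in bins of 0.05, with dashed lines at 1.5-fold. Right, the number of the same 15317 genes by unadjusted limma p in bins of 0.05, with a dashed line at an equal count in every bin. 20 genes lie beyond 1.5-fold, and the lowest p bin holds 507 genes (3.31%), fewer than the dashed line.

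Selenoprotein transcripts differed little. Of 24 selenoprotein genes measured, all well above background, 0 were called, 3 (12.5%) were lower and 0 higher at an unadjusted p under 0.05 (1.98% and 1.52% of all genes). The median difference of the 24 was -0.04 against 0 for all genes, and single genes ranged from -0.25 to 0.1. *Gpx1*, the cytosolic glutathione peroxidase that is most often used to follow selenium status, had HH log2 ratios of -2.25 at the lowest, -2.13 at the median and -2.01 at the highest. The LL values were -2.3, -2.18 and -2.01, so the groups overlapped over nearly their whole range. The log2 difference was -0.05 ± 0.06 (SE), with a 95% interval of -0.17 to 0.08, and the unadjusted p was 0.453. *Gpx4*, the peroxidase that reduces lipid hydroperoxides in membranes, differed by -0.01, with an interval of -0.15 to 0.12. Both intervals lay within 1.5-fold in either direction.

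*Gpx2*, the glutathione peroxidase made mainly by the gut epithelium, had the lowest p of the selenoproteins. Its HH log2 ratios ran from -0.14 through a median of 0.38 to 0.8 and its LL ratios from -0.3 through 0.1 to 0.51. LL was below HH on 5 of 6 slides, each slide carrying 1 array of each group, while the groups as a whole overlapped. The difference was -0.25 ± 0.08 (SE), a ratio of 0.842, with an unadjusted p of 0.00756. It was -0.39 ± 0.09 without the 5 arrays with unmatched sex transcripts and -0.2 ± 0.08 without LL replicate 4. *Selenow*, the small muscle-rich selenoprotein W, was between -0.49 and 0.19 in HH with a median of -0.4, and between -0.62 and -0.22 in LL with a median of -0.37. The group medians lay close together, and 2 HH arrays were above 0 where no LL array was. The difference was -0.16 ± 0.06 (unadjusted p = 0.0182), and -0.11 ± 0.09 without the 5 arrays. *Txnrd1*, the cytosolic thioredoxin reductase, had medians of 0.11 in HH and -0.12 in LL and a highest LL value of 0.66, above every HH array. Its difference was -0.19 ± 0.08 (unadjusted p = 0.032) and -0.09 ± 0.12 without the 5 arrays.

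Of the 11 genes for the synthesis and insertion of selenocysteine, 0 were called. *Secisbp2*, which binds the hairpin that recodes UGA as selenocysteine, had HH values of -0.58 to -0.18 (median -0.34) and LL values of -0.42 to -0.09 (median -0.18). It was higher in LL on 6 of 6 slides although the groups overlapped, with a difference of 0.13 ± 0.06 (SE, unadjusted p = 0.0298), and its other probe gave 0.15. *Lrp8*, a receptor for selenoprotein P, differed by 0.12 ± 0.07 (unadjusted p = 0.116), while its dimmer probes gave -0.08 and -0.03, and it was at 0.02 ± 0.1 without the 5 arrays. *Txn1*, encoding thioredoxin, the substrate of thioredoxin reductases, stood among the lowest p-values of the well-measured genes. HH arrays lay between -0.88 and -0.3 (median -0.54) and LL arrays between -0.95 and -0.56 (median -0.9). LL was below HH on 6 of 6 slides, as in 1.03% of all genes (0.982% were higher on 6 of 6), while the ranges of the groups overlapped. The difference was -0.24 ± 0.07 (SE), a ratio of 0.845, with an unadjusted p of 0.0013, and it lay between -0.33 and -0.14 under every alternative run. In the list of Nrf2 targets and glutathione enzymes, 2 of 39 genes (5.13%) were lower and 1 (2.56%) higher at an unadjusted p under 0.05. Of all genes 1.98% were lower and 1.52% higher. The median difference of the list was -0.02. The higher gene was *Keap1*, the inhibitor of Nrf2, at 0.14 ± 0.06 (unadjusted p = 0.0387). It was at 0.14 ± 0.07 without LL replicate 4 (unadjusted p = 0.0581) and at 0.32 ± 0.07 without the 5 arrays (unadjusted p = 0.000348). In the latter setting 7.2% of all probes had an unadjusted p under 0.05 in either direction.

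**Figure D2:**
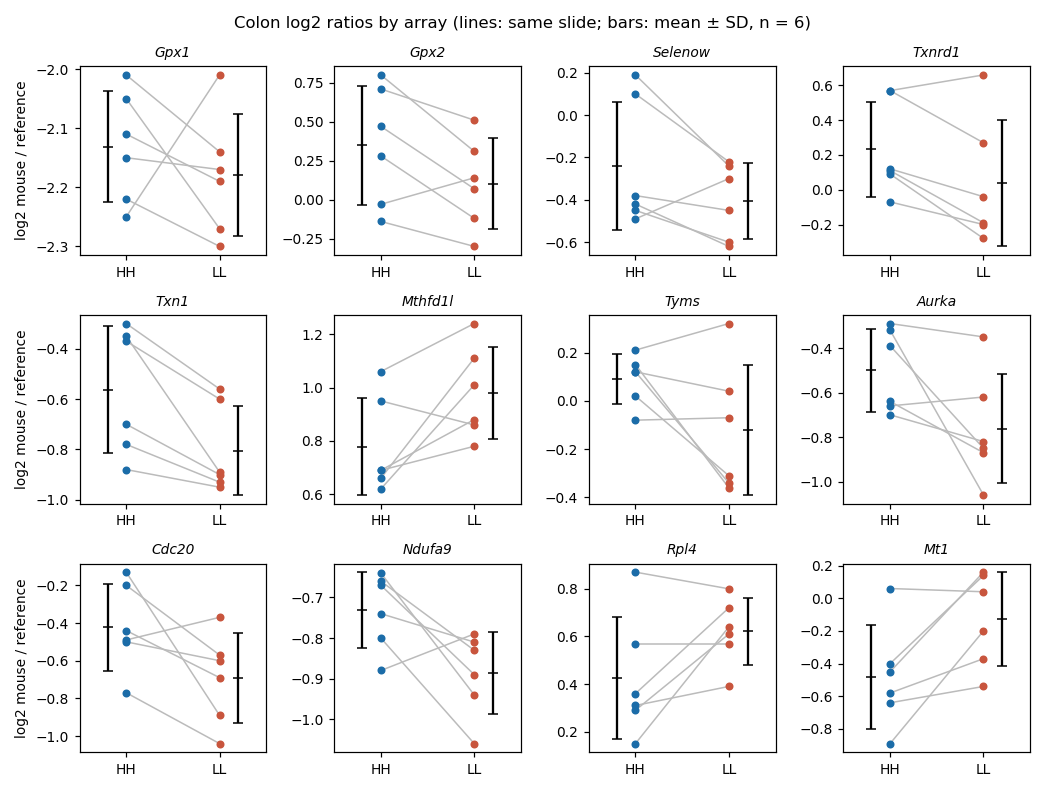
Log2 mouse over reference ratios of 12 genes on each colon array (vertical axes, 1 panel per gene, each with its own scale), HH in blue and LL in red, with grey lines joining the HH and LL arrays of a slide and black bars at the mean ± SD (n = 6). HH and LL overlap in every panel; *Txn1* is lower in LL on 6 of 6 slides and *Gpx2* on 5 of 6.

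Folate genes showed no shared direction. Of 26 folate cycle and transport genes measured, 1 was lower and 1 higher at an unadjusted p under 0.05 (3.85% each, against 1.98% and 1.52% of all genes), and the median difference was 0.01. *Tyms*, thymidylate synthase, which uses a folate one-carbon unit to make the DNA precursor dTMP, had a median of 0.12 in HH (lowest -0.08, highest 0.21) and -0.19 in LL (lowest -0.36, highest 0.32). Of the 6 LL arrays 3 lay below every HH array, and the highest LL array lay above all of them. The difference was -0.21 ± 0.08 (SE, unadjusted p = 0.0146), and a second probe gave -0.23. *Mthfd1l*, the mitochondrial enzyme that releases formate for use in the cytosol, lay between 0.62 and 1.06 in HH (median 0.69) and between 0.78 and 1.24 in LL (median 0.94), a difference of 0.2 ± 0.07 (unadjusted p = 0.0132), or 0.19 ± 0.11 without the 5 arrays (unadjusted p = 0.0941). The carriers of folate into cells were near 0: *Slc19a1*, the reduced folate carrier, differed by 0.11 ± 0.07 and *Slc46a1*, the proton-coupled folate transporter, by -0.06 ± 0.06. Without the 5 arrays they were at 0.07 ± 0.09 and -0.12 ± 0.09. *Mthfd1*, the trifunctional cytosolic enzyme, differed by 0.06 ± 0.08, and by -0.11 ± 0.1 without the 5 arrays. Of 24 genes of the methionine cycle and DNA methylation, 0 had an unadjusted p under 0.05, with a median difference of 0 and a range of -0.11 to 0.09. *Dnmt1*, the maintenance DNA methyltransferase, differed by 0.04 ± 0.06 with a 95% interval of -0.07 to 0.16, and *Dnmt3b*, a de novo methyltransferase, by 0.09 ± 0.06. Without the 5 arrays *Dnmt1* was at 0.16 ± 0.07 (unadjusted p = 0.0497).

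The genes of mitosis and the spindle checkpoint had the highest share of members at an unadjusted p under 0.05 among the pathway lists, and all of these were lower in LL. Of 39 measured, 0 were called, but 18 were lower and 0 higher at an unadjusted p under 0.05, against 1.98% of all genes lower. The median difference was -0.18, a ratio of 0.881, and 94.9% of the 39 were below 0, against 49.8% of all genes. Single genes ranged from -0.31 to 0.03. The list was chosen with earlier results of these data known. A neighbouring list, of DNA replication and entry into S phase, lay the same way but less far. Of its 41 genes, 3 (7.32%) were lower and 0 higher, 75.6% were below 0, and the median was -0.04.

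The 4 members with the lowest p act at successive steps of division: *Aurka* (Aurora A kinase, which matures the spindle poles), *Ect2* (which opens cytokinesis by activating RhoA), *Plk1* (Polo-like kinase) and *Cdc20* (which activates the anaphase-promoting complex). The stretch of 150 bases before the start site of each is printed here because these genes are transcribed together late in the cell cycle, when their promoters are classically held by factors at CCAAT boxes and at a TTTGAA element near the start. Sequences are from RefSeq, GRCm38.p6, on the gene's strand, before the first start listed there for each gene (for *Aurka* and *Ect2* the span of the gene reaches further upstream, so the stretch lies within it), with CCAAT or its reverse complement ATTGG in capitals. The stretches lie at chr2:172370571-172370720 on the minus strand, chr3:27153879-27154028 on the minus strand, chr7:122159285-122159434 on the plus strand and chr4:118437344-118437493 on the minus strand.
Aurka: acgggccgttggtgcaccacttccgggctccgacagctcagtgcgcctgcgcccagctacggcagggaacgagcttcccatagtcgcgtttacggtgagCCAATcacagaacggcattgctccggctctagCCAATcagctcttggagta
Ect2: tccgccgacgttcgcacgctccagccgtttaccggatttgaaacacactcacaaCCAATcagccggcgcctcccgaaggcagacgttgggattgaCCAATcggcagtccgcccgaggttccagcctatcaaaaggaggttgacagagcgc
Plk1: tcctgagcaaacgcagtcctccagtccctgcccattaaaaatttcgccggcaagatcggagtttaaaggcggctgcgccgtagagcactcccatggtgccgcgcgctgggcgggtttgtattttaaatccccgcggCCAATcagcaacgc
Cdc20: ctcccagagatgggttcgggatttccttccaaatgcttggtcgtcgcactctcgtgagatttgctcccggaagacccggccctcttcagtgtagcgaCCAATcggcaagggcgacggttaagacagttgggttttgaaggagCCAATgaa
*Aurka*, *Ect2* and *Cdc20* hold 2 such boxes each in these stretches and *Plk1* holds 1. Over the window from 250 bases before to 50 bases after the start, CCAAT on either strand was found in 25 of the 31 list members with a promoter in the table (80.6%) and in 38.5% of all 14664 measured genes with a promoter. TTTGAA on either strand, which does not overlap CCAAT, was found in 22 of 31 (71%) and in 14.9% of all. In the replication list the shares were 63.6% and 12.1%, so the CCAAT box was common to both lists and TTTGAA was not. These are matches of letters and not measured binding.

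*Aurka* lay between -0.7 and -0.29 in HH (median -0.51) and between -1.06 and -0.35 in LL (median -0.83). It was lower in LL on 5 of 6 slides, with overlap between the groups, and the difference was -0.26 ± 0.08 (SE, unadjusted p = 0.00374). *Ect2* had medians of -0.27 in HH and -0.59 in LL and a difference of -0.28 ± 0.09 (unadjusted p = 0.00403), while its second, dimmer probe gave -0.04. *Plk1*, chosen after its values were seen, had medians of -0.33 and -0.64 and a difference of -0.26 ± 0.08. *Cdc20*, likewise, ran from -0.77 through -0.47 to -0.13 in HH and from -1.04 through -0.65 to -0.37 in LL, a difference of -0.27 ± 0.09, or -0.18 ± 0.11 without the 5 arrays. Outside the list, the well-measured gene with the lowest p was *Cdca3*, a mitotic entry factor also named after its values were seen. Its HH arrays lay between -0.55 and -0.04 (median -0.27) and its LL arrays between -0.88 and -0.21 (median -0.67), with a difference of -0.33 ± 0.08, an unadjusted p of 0.000279 and an adjusted p of 1 by limma. Its second probe gave -0.24.

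The size of the mitosis shift depended on the slide. The median difference of the 39 genes was -0.66 on slide 7, -0.28 on slide 8, -0.12 on slide 9, -0.27 on slide 10, -0.02 on slide 11 and 0.18 on slide 12. All 39 genes were lower in LL on slide 7 and 3 of 39 on slide 12. Without slide 7, an alternative chosen after seeing the data, the median was -0.1 and 3 of 39 genes were lower at an unadjusted p under 0.05. Slide 7 carries LL replicate 1, which had the female pattern of transcripts, and HH replicate 1, which had transcripts of both sexes. Without LL replicates 1 and 3 the median was -0.15 with 9 of 39 lower, and without the 5 arrays it was -0.13 with 5 of 39 lower. Without the slide block the count was 5 of 39 at a median of -0.18. The share of all probes at that p, in either direction, also moved. It was 3.43% in the reported fit, 3.38% without slide 7 and 3.93% without LL replicates 1 and 3. It was 7.2% without the 5 arrays and 1.72% without the slide block. The part of sex, of the slide and of tissue make-up in this shift was not tested. In whole-tissue RNA, fewer dividing cells and less of each transcript per dividing cell cannot be told apart.

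**Figure D3:**
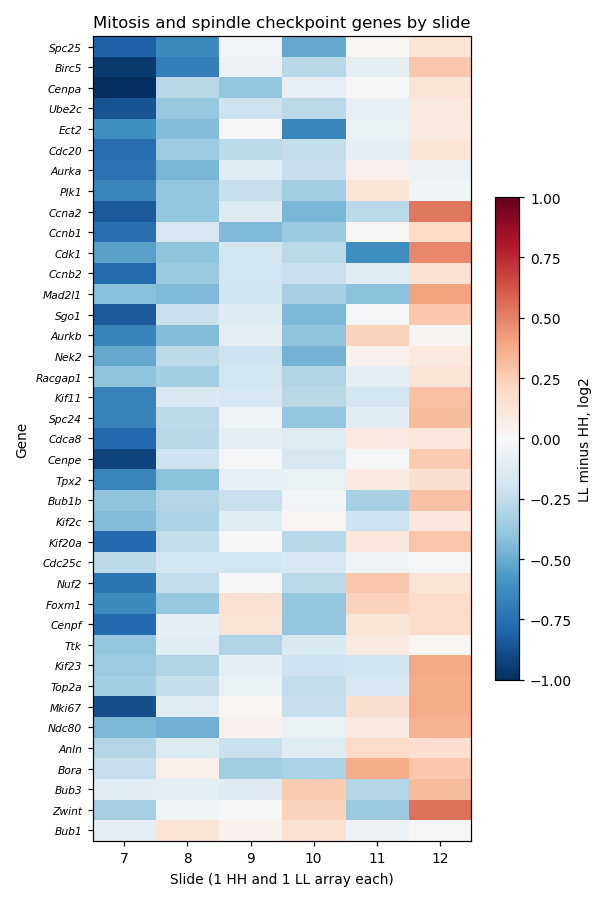
Log2 difference LL minus HH (colour, red higher and blue lower in LL, with values beyond 1 drawn at the end of the scale) of the 39 measured mitosis and spindle checkpoint genes (rows, ordered by fitted difference) on each of the 6 slides (columns). Slide 7 is blue throughout, with a median of -0.66, and slide 12 is mostly red, with a median of 0.18.

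Most transcripts of the respiratory chain lay slightly below 0, and fewer of them had a low p than in the mitosis list. Of 76 genes for subunits of complexes I to V measured, 0 were called, 9 (11.8%) were lower and 0 higher at an unadjusted p under 0.05. Of all genes 1.98% were lower and 1.52% higher. The median difference was -0.09, 96.1% were below 0 against 49.8% of all genes, and single genes ranged from -0.2 to 0.06. *Ndufa9*, a subunit of complex I, lay between -0.88 and -0.64 in HH (median -0.7) and between -1.06 and -0.79 in LL (median -0.86). It was lower in LL on 5 of 6 slides, and the difference was -0.16 ± 0.06 (SE, unadjusted p = 0.0112). *Cox7a2*, a subunit of cytochrome c oxidase, had medians of 0.1 in HH and -0.1 in LL, with a difference of -0.2 ± 0.08 (unadjusted p = 0.0151) and -0.23 at its second probe. The list median by slide ran from -0.25 on slide 10 to 0.07 on slide 9. Without LL replicate 4 it was -0.05 with 3 of 76 lower (3.47% of all probes at that p in either direction). Without LL replicates 1 and 3 it was -0.13 with 21 of 76 lower (3.93% of all probes). Without the 5 arrays it was -0.14 with 24 of 76 lower (7.2% of all probes). With plain background correction, which compressed the ratios of HH replicates 1 and 4, it was -0.13 with 31 of 76 lower (8.6% of all probes). The 35 genes of mitochondrial protein import and folding had a median of -0.04 with 1 lower, *Timm10* of the inner membrane import chaperones, at -0.13 ± 0.05 (unadjusted p = 0.0214), or -0.12 ± 0.06 without LL replicates 1 and 3 (unadjusted p = 0.0831).

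Cytosolic ribosomal protein genes lay slightly the other way. Of 78 measured, 0 were lower and 3 (3.85%) higher at an unadjusted p under 0.05, against 1.98% and 1.52% of all genes. The median difference was 0.05, and 14.1% were below 0 against 49.8% of all genes. *Rpl4*, a protein of the large subunit, had HH values of 0.15 to 0.87 (median 0.34) and LL values of 0.39 to 0.8 (median 0.62), a difference of 0.19 ± 0.07 (unadjusted p = 0.00825). *Rpl5*, which binds 5S RNA, differed by 0.2 ± 0.07 at the brighter probe and by -0.04 at the other. Without LL replicate 4 the list median was 0.01 with 43.6% of genes below 0, and without the 5 arrays it was 0.12. The replication list's lowest p belonged to *Gins2*, of the helicase complex at the fork, with HH values of 0.15 to 0.85 (median 0.47) and LL values of 0.17 to 0.39 (median 0.23). Its difference was -0.21 ± 0.07 (unadjusted p = 0.00808). *Lig1*, the ligase that joins Okazaki fragments, differed by -0.13 ± 0.06. Without the 5 arrays *Gins2* was at -0.31 ± 0.1 and *Lig1* at -0.21 ± 0.08.

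Stress-related genes gave single low p-values with list medians near 0, while most clock genes lay above 0. *Mt1*, a metallothionein that binds zinc and is induced by metals and glucocorticoids, lay between -0.89 and 0.06 in HH (median -0.52) and between -0.54 and 0.16 in LL (median -0.08). The difference was 0.36 ± 0.15 (SE, unadjusted p = 0.0252), with *Mt2* at 0.42 ± 0.22 (unadjusted p = 0.0656) and higher in LL on 6 of 6 slides. The 23 genes of metallothioneins and zinc transport had a median of 0. *Fkbp5*, a glucocorticoid-induced chaperone of the steroid receptor, ran from -0.63 through -0.28 to 0.25 in HH and from -0.56 through 0.22 to 0.35 in LL. It was higher in LL on 6 of 6 slides, with a difference of 0.3 ± 0.11 (unadjusted p = 0.0161), and its other probes gave 0.23 and 0.27. Without LL replicates 1 and 3 *Fkbp5* was at 0.2 ± 0.11 (unadjusted p = 0.0833) and *Mt1* at 0.35 ± 0.18 (unadjusted p = 0.0639). *Herpud1*, of the degradation pathway for misfolded endoplasmic reticulum proteins, differed by 0.16 ± 0.06 (unadjusted p = 0.0132), whereas the 31 genes of the unfolded protein response had a median of -0.03. Clock genes had a median of 0.16 over 20 genes, of which 30% were below 0 and 0 had an unadjusted p under 0.05. The clock median was 0.06 without LL replicates 1 and 3. Against the same HH arrays it was 0.23 in HL and 0.08 in LH, with 4 and 7 of 20 genes at that p (3.29% and 8.08% of all probes). Without HL replicate 5 the HL median was 0.32. *Per1*, a light and glucocorticoid responsive repressor of the clock, differed by 0.43 ± 0.24 and ranged from -0.21 to 1.37 in HH alone. The times of day of tissue collection are not given in the sources used here. Of 35 genes of the p53 and DNA damage response, 0 had an unadjusted p under 0.05, with *Atm*, the kinase that signals double-strand breaks, at 0.13 ± 0.06, or 0.23 ± 0.09 without the 5 arrays.

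Cholesterol synthesis genes lay slightly lower in LL, with a spread between slides wider than the difference. All 24 genes of cholesterol synthesis measured were below 0 in LL (median -0.13, range -0.27 to -0.01), against 49.8% of all genes, but 0 reached an unadjusted p under 0.05. The list median ran from -0.55 on slide 10 to 0.17 on slide 7. *Idi1*, isopentenyl diphosphate isomerase, differed by -0.26 ± 0.15 and *Tm7sf2*, a sterol reductase, by -0.12 ± 0.07. Without LL replicate 4 the list median was -0.07. Without the 5 arrays it was -0.18 with 4 of 24 lower (7.2% of all probes at that p in either direction) and *Idi1* at -0.51 ± 0.21. Of 35 genes of fatty acid oxidation and PPAR targets, 1 (2.86%) was lower at that p, against 1.98% of all genes. This was *Fabp2*, the intestinal fatty acid binding protein. Its HH values were -2.52 to -1.48 (median -1.9) and its LL values -2.85 to -1.97 (median -2.05), a difference of -0.3 ± 0.14 (unadjusted p = 0.0421), and its dimmer probe gave -0.37 ± 0.11. Without LL replicate 4 it was at -0.21 ± 0.14. *Ucp2*, a mitochondrial carrier, differed by 0.13 ± 0.06, or 0.07 ± 0.09 without the 5 arrays.

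**Figure D4:**
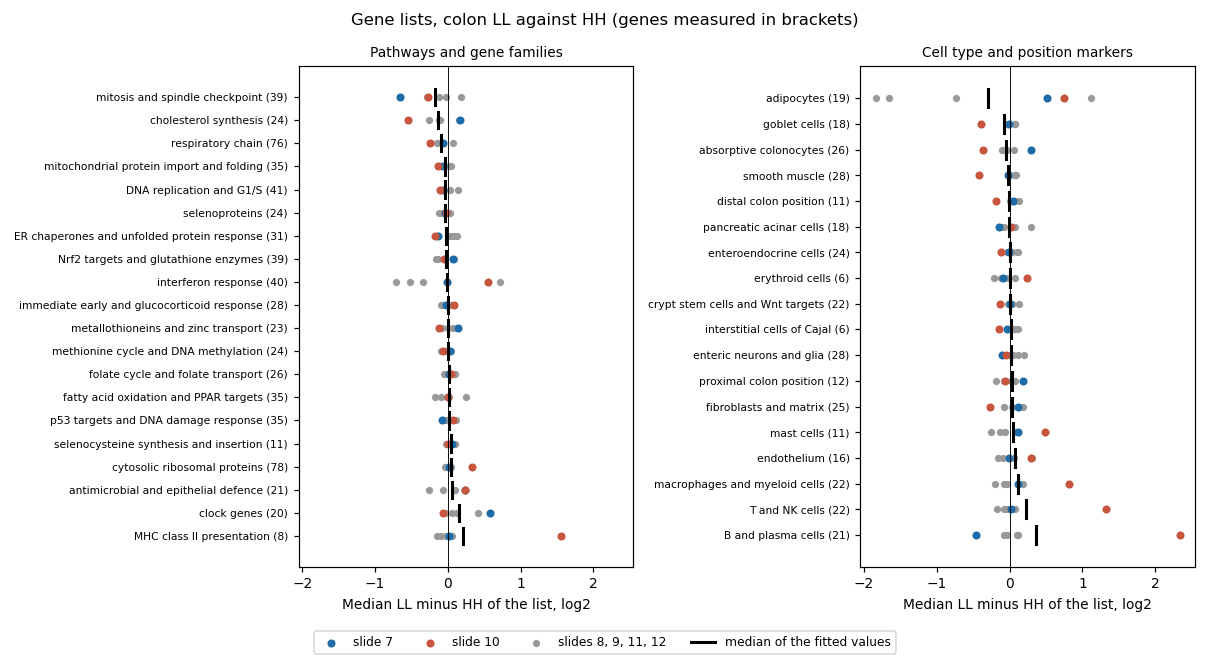
Median log2 difference LL minus HH (horizontal axes) of each gene list (rows, genes measured in brackets), with pathway lists on the left and cell type and position markers on the right. Points are the 6 slides, with slide 7 in blue and slide 10 in red, and black bars are medians of the fitted values. B cell, T cell, myeloid and MHC class II lists are highest on slide 10, the adipocyte list spreads over 1.12 to -1.84, and the mitosis list is lowest on slide 7.

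Markers of lymphoid cells stood apart on a single LL array. B and plasma cell genes had a median log2 ratio of 2.35 in LL replicate 4 and of -0.36 to 0.12 on the other LL arrays. T and NK cell genes were at 1.45 there against 0.01 to 0.32, and MHC class II genes at 1.33 against -0.06 to 0.28. *Ms4a1*, the B cell antigen CD20, was at 4.22 in that array against a median of -1.34 over LL and -1.4 over HH, and *Marco*, a scavenger receptor of lymphoid tissue macrophages, was at 4.67 against a highest HH value of -1.21. Both were chosen after their values were seen. The fitted list medians of LL minus HH were 0.37 for 21 B and plasma cell genes (20 well above background), 0.22 for 22 T and NK cell genes and 0.21 for 8 MHC class II genes. Without LL replicate 4 they were -0.07, -0.03 and -0.04, and without the 5 arrays, a setting that keeps LL replicate 4, they were 0.93, 0.46 and 0.52. Of the 20 genes well above background that differed by over 1.5-fold, 3 had an unadjusted p under 0.05 (0.0196% of genes well above background), among them *Cd209b*, a macrophage lectin, at 0.71, and *Aqp8*, a colonocyte water channel, at -0.6, both likewise chosen after their values were seen. *Cd209b* was at 0.29 ± 0.19 without LL replicate 4. *Aqp8* lay between -3.74 and -0.58 in HH (median -3.45) and between -3.83 and -3.08 in LL (median -3.66), and without HH replicate 4, a setting added after seeing the data, its difference was -0.17 ± 0.13 (unadjusted p = 0.209). Over all 41173 probes, named or not, 16 (0.0389%) had an unadjusted p under 0.05 with a fold change over 1.5. Probes without a gene name among them were also chosen after their values were seen. Those lower in LL included probes at -1.28 ± 0.37, -1.03 ± 0.28, -0.98 ± 0.29, -0.92 ± 0.28, -0.87 ± 0.28 and -0.87 ± 0.28. Each of these was lower in LL on 5 or 6 of 6 slides, and they are annotated to closely numbered Ensembl transcripts. Another unnamed probe, annotated otherwise, was at 0.63 ± 0.16 and higher in LL on 6 of 6.

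Adipocyte markers had a wide spread over the LL arrays. The list median of 19 genes (18 well above background) was between 0.52 and 1.36 on the HH arrays, while LL arrays ranged from -0.5 in replicate 6 and -0.01 in replicate 2 up to 1.61 in replicate 3. *Adipoq*, encoding adiponectin and chosen after its values were seen, had medians of 2.53 in HH and 2.34 in LL and a lowest LL value of -0.98, and its difference of -0.84 ± 0.59 had an unadjusted p of 0.17. *Fabp4*, the adipocyte fatty acid binding protein, ran from 0.5 to 1.36 in HH and from -2.01 to 2.52 in LL, with a difference of -0.44 ± 0.5. The fitted list median was -0.3, and it was -0.05 without LL replicate 6. Without the 5 arrays it was -0.8, with *Fabp4* at -1.21 ± 0.69 and *Adipoq* at -1.65 ± 0.86. Colonocyte markers had a median of -0.05 over 26 genes. Of these 2 (7.69%) were lower and 1 (3.85%) higher at an unadjusted p under 0.05, against 1.98% and 1.52% of all genes. The list median by slide ran from -0.37 on slide 10, which carries LL replicate 4, to 0.29 on slide 7. *Car1*, carbonic anhydrase of the surface epithelium, differed by -0.12 ± 0.08. Without the 5 arrays, a setting that keeps LL replicate 4, the colonocyte median was -0.16 with 5 of 26 lower, and *Car1* was at -0.26 ± 0.09. In that setting 7.2% of all probes had an unadjusted p under 0.05 in either direction. Goblet cell genes had a median of -0.07 over 18 genes with 1 lower (5.56%). Their median was -0.39 on slide 10 and between -0.05 and 0.08 on the other slides. Enteroendocrine genes had a median of 0 over 24 with 2 lower (8.33%) and 1 higher (4.17%). Crypt stem cell genes were at 0.01 over 22, smooth muscle genes at -0.02 over 28 and enteric neuron and glia genes at 0.02 over 28. Genes of pancreatic acinar cells, erythroid cells, mast cells, interstitial cells of Cajal, endothelium, fibroblasts and the proximal and distal colon had medians between -0.01 and 0.08. The part of lymphoid and fat tissue on single arrays in the pathway lists was not tested.

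Of 21 genes of antimicrobial and epithelial defence 1 (4.76%) was higher at an unadjusted p under 0.05, against 1.52% of all genes, with a list median of 0.06. *Saa3*, an acute-phase protein made by the gut epithelium, lay between 0.26 and 1.15 in HH (median 0.87) and between 0.46 and 1.58 in LL (median 1.39), a difference of 0.36 ± 0.17 (SE, unadjusted p = 0.0479), and *Saa2* differed by 0.32 ± 0.15 (unadjusted p = 0.0538). Without LL replicates 1 and 3 *Saa3* was at 0.22 ± 0.18 (unadjusted p = 0.255), and without the 5 arrays at 0.17 ± 0.21. *Saa2* was at 0.17 in both settings. *Reg3b*, an antimicrobial lectin named after its values were seen, ran from -3.72 to -1.42 in HH and from -4.33 to -0.7 in LL, with a difference of 0.84 ± 0.62. Of 40 interferon response genes, 0 had an unadjusted p under 0.05, and the list median ran from -0.71 on slide 9 to 0.71 on slide 8 around a fitted -0.01. Without LL replicates 1 and 3 the interferon median was 0.17 with 1 of 40 higher, and without the 5 arrays it was 0.38 with 6 of 40 higher and 2.5% below 0. The LL arrays left out in the latter, replicates 1, 3 and 5, had list medians of -0.98, -1.39 and -1.43. Those kept, replicates 2, 4 and 6, had list medians of -0.02, -0.16 and -0.86. Of all probes 3.93% and 7.2% were at that p in these settings, in either direction. The widest single difference among genes well above background, also named after its values were seen, was *Cyp1a1*, a detoxifying enzyme induced through the aryl hydrocarbon receptor. HH arrays were spread from -4.53 through a median of -1.01 to 3.1, and LL arrays from -4.15 through -3.39 to 2.55. The highest values, 3.1 and 2.14 in HH and 2.55 in LL, show arrays of both groups far above the rest, and the difference of -1.58 ± 0.9 had an unadjusted p of 0.0946.

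Beside HL and LH, LL was not the group with the most low p-values against HH. HL minus HH, LH minus HH and LL minus HH share the same 6 HH arrays, so their directions are not independent. No probe was called in HL or LH, and 3.29% and 8.08% of probes had an unadjusted p under 0.05, against 3.43% in LL. The mitosis list had medians of -0.29 in HL, -0.2 in LH and -0.18 in LL, with 29, 26 and 18 of 39 genes at an unadjusted p under 0.05. Without HL replicate 5, which had the female pattern, the HL median was -0.27. The respiratory chain had medians of -0.07, -0.1 and -0.09, and the replication list -0.09, -0.14 and -0.04. In the replication list 10, 16 and 3 of 41 genes were at an unadjusted p under 0.05. *Gpx2* differed from HH by -0.09 in HL, -0.17 in LH and -0.25 in LL, and *Txn1* by -0.17, -0.22 and -0.24. Whether the effects of the dam's diet and the offspring's diet add up was tested as LL minus LH minus HL plus HH: 0 of 41173 probes were called by limma, and 4.8% had an unadjusted p under 0.05. In the mitosis list 20 of 39 genes had an unadjusted p under 0.05, all above 0, with a list median of 0.29. The contrast was 0.35 for *Plk1* (unadjusted p = 0.00727), 0.32 for *Cdc20* (0.0184), 0.31 for *Ect2* (0.0203) and 0.22 for *Aurka* (0.0648), and the adjusted p of each was 0.99. In the replication list 13 of 41 genes were so, with a median of 0.19. The HH arrays enter this contrast as well as all 3 differences above.

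**Figure D5:**
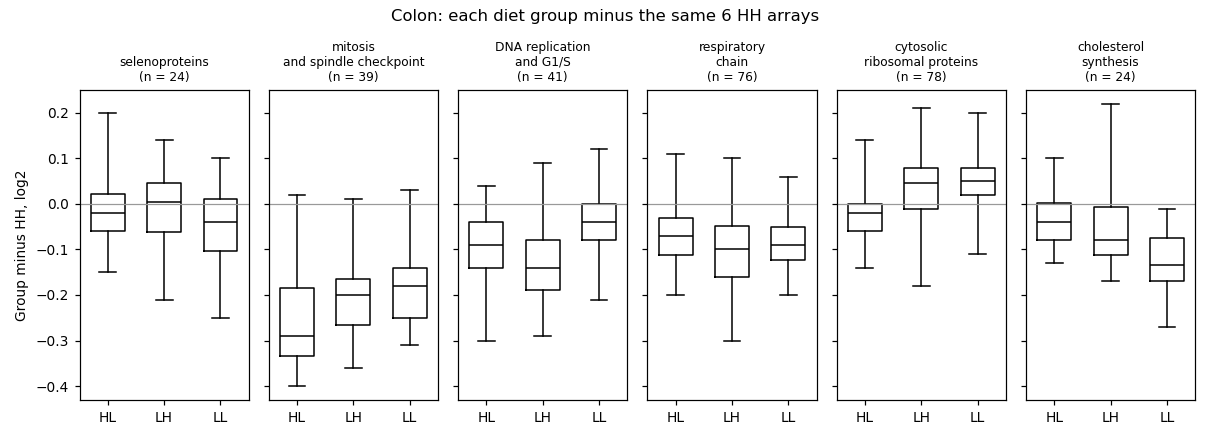
Log2 difference from HH (vertical axis) of the genes of 6 lists in HL, LH and LL colon; boxes span the quartiles, lines inside are medians and whiskers reach the lowest and highest gene. All 3 groups are set against the same 6 HH arrays. The boxes of the mitosis list lie below 0 in each group, with medians of -0.29, -0.2 and -0.18.

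The same contrast in the liver allowed the difference between tissues to be tested. Colon and liver arrays carry different animal numbers in their titles, and the fit took them as separate mice. Whether both tissues came from the same mice is not settled by the titles. For LL minus HH, colon minus liver, 0 of 41171 probes were called by limma and 3.82% had an unadjusted p under 0.05. *Gpx4* differed by -0.01 in colon and by -0.45 in liver, a difference between tissues of 0.44 (unadjusted p = 0.0029, adjusted p = 1). *Mthfd1l* differed by 0.2 in colon and -0.45 in liver (difference 0.65, unadjusted p = 0.00219). *Selenow* was at -0.16 in colon and -0.33 in liver, and *Gpx1* at -0.05 and -0.2, with unadjusted p-values of 0.281 and 0.268 for the difference. The mitosis list had medians of -0.18 in colon and -0.24 in liver.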

How the data were processed

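RNA of 48 mouse samples was hybridised in Cy3, with a common reference RNA in Cy5, on 2-colour 44k arrays without dye swaps. The sources differ on the reference, described as whole pregnant mouse with foetus in the series design and as pooled intestine and liver in the methods. Each array file deposited by the authors holds scanner intensity values for 45018 spots. The deposited table of log2 ratios, made by the authors with limma, runs as reference over mouse and was used with its sign turned, as an alternative.

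Median intensities were corrected by normexp with an offset of 50. The background of spots dimmer than their surroundings was first set to the array median, because plain correction compressed the ratios of HH replicate 1 (SD 0.53 plain, 0.811 repaired). It also compressed those of HH replicate 4 (SD 0.692 plain, 0.802 repaired), while the SD of each LL colon array hardly changed. Global loess followed, and spots of a probe were averaged. Of 41174 probes 27053 were named through RefSeq accessions, giving 18437 genes, and the probe with the highest Cy3 signal stood for a gene. The limma 3.58.1 fit in R 4.3.3 held 24 colon arrays in 4 groups with slide as a block. Probes with an FDR (Benjamini-Hochberg) under 0.05 were called where they also differed by over 1.5-fold. The fit was tested on simulated data. The colon and liver comparison left out the second array of an HH liver animal listed in the titles under 2 arrays. Each slide carried 1 array of each colon group, and same-slide HH and LL arrays deviated together (correlations of 0.156 to 0.602).

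The arrays compared and the 39 gene lists were chosen with earlier results of these data known. The genes named were, per pathway list, the 2 with the lowest p, per cell list the gene with the highest Cy3 signal, and 13 further genes of selenium, folate and sex. Some genes that this rule names are not reported here. Alternatives covered the block, background, scaling, filter, array weights and each left-out replicate, and the settings without slide 7, without HH replicate 4 for *Aqp8* and without HL replicate 5 were chosen after seeing the data. The number of arrays limits the precision.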

Additional observations from a re-analysis of the deposited data

Results flagged for a closer look

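Of 210 groups of 6 values examined, 13 had a highest or lowest array separated from the others by a wide gap relative to the range of the group. Chance alone also flags groups in this way, and how many was not estimated, so the count by itself shows nothing. LL replicate 4 accounted for 11 of the 13. Its list medians were 2.35 for B and plasma cells (others -0.36 to 0.12), 1.45 for T and NK cells (0.01 to 0.32), 1.33 for MHC class II (-0.06 to 0.28) and 1.13 for macrophages and myeloid cells (0.28 to 0.59). They were 0.19 for interstitial cells of Cajal (-0.93 to -0.52), 0.54 for ribosomal proteins (0.28 to 0.37) and -0.69 for the methionine cycle and DNA methylation (-0.42 to -0.33). Among its single genes, *H2-Oa* was at 2.54 (0.54 to 0.92) and *H2-Ob* at 2.47 (0.34 to 0.51), both chains of a modulator of antigen loading. The interferon-induced *Gbp4* was at 0.2 (-1.84 to -1.33) and the clock repressor *Bhlhe40* at -0.07 (0.33 to 0.53). In HH, *B3galt5*, a glycosyltransferase, was at 1.74 in replicate 4 (0.92 to 1.21), and the Y-linked *Eif2s3y* was at -1.49 in replicate 5 (-0.62 to -0.15), the array that also gave *Xist* signal.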

How the results depend on the processing

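No probe was called under 29 of the 30 alternatives run. The exception used only the HH and LL arrays and called 1 probe, without a gene name in the sources used here (adjusted p = 0.0427 by limma). At an unadjusted p under 0.05 there were 1414 probes as reported (3.43%), and 708 (1.72%) without the slide block that pairs HH and LL arrays. The number was 3540 (8.6%) with plain background correction and 872 (3.05%) among probes well above background. It was 2964 (7.2%) without HH replicates 1 and 5 and LL replicates 1, 3 and 5. Leaving out each replicate in turn gave 0 to 0 called probes and 1131 to 1892 at an unadjusted p under 0.05. The comparisons of colon with liver and of non-additivity had 0 calls under every alternative they were run with. None of the 22 named genes at an unadjusted p under 0.05 changed sign under any alternative. Most of them were named for a low p in the reported fit, and the alternatives share most of its arrays. A change of sign was therefore unlikely from the start, and its absence says little. The mitosis list had medians of -0.26 to -0.1 with 3 to 29 of 39 genes lower, and the respiratory chain -0.14 to -0.05 with 1 to 31 of 76 lower. The causes were not tested. With 6 arrays a group, 5 of the 12 arrays carrying unmatched sex transcripts and 1 carrying lymphoid transcripts, small differences are uncertain in size.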

Other observations

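Outside the gene lists, and chosen after their values were seen, a few well-measured genes had low p-values without passing the adjusted threshold. *Cdkn3*, a phosphatase of cyclin-dependent kinases, had medians of 0.86 in HH and 0.63 in LL and a log2 difference (LL minus HH) of -0.31 ± 0.08 (SE) at both probes, and of -0.18 ± 0.1 without HH replicates 1 and 5 and LL replicates 1, 3 and 5 (unadjusted p = 0.0746). *Steap1*, a metalloreductase family member, had medians of 0.05 and -0.31 and differences of -0.3 and -0.28 at its probes. *Coro7*, a coronin of the Golgi, had medians of -0.13 and 0.18 and a difference of 0.3 ± 0.07.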
